A study of Mus musculus with 29 samples.

Results

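Ctla2a, Tfpi2, Fbln2 and Ggct are 4 mouse genes whose transcripts were raised by transforming growth factor beta (TGFβ) in NMM cells, an NRAS-mutant line of murine melanoma. They were picked by name for that rise, as 4 of the 28229 genes in the count table and of the 14935 with enough reads to be tested, and all 4 had enough reads. The rise with TGFβ over the matching medium, also where TGFβ was given after IFNγ, is therefore given below as a description without a test. Tests are kept for other questions, whose contrasts share libraries with that choice. They are withdrawal against continued presence, the effect of interferon gamma (IFNγ) before, after or without TGFβ, and the length of the first exposure.

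Bulk mRNA was sequenced from cells given a first stimulation of 2, 6, 12 or 24 h, then 5 PBS washes and a second stimulation for another 24 h. TGFβ was used at 10 ng/ml and IFNγ at 100 ng/ml, and all cells carried the NRAS mutation and grew in medium with 10% fetal calf serum. The 29 libraries form 7 sequences of 4 libraries, 1 for each first duration, and 1 further library. The sequences are TGFβ then IFNγ, TGFβ then medium, IFNγ then TGFβ, medium then TGFβ, IFNγ then medium, medium then IFNγ, and medium then medium. The further library received medium for 24 h and then a mix of both cytokines at the same concentrations. In medium then TGFβ the cytokine was present until harvest, in TGFβ then medium it had been washed out 24 h earlier, and in TGFβ then IFNγ the wash was followed by IFNγ. The labels name no other replicates and 1 cell line. The 4 durations therefore serve as replicates. A p-value for a comparison of sequences reflects the scatter left after a duration effect common to all sequences, estimated over all 29 libraries. For the length of the first exposure, the scatter is that around a line fitted to each sequence. Either scatter may be technical. No measurement of cytokine left after the wash was analysed here.

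TGFβ binds a pair of receptor kinases that phosphorylate Smad proteins. These enter the nucleus and bind short DNA elements, often beside factors such as AP-1, and they change the transcription of genes of the extracellular matrix, of proteolysis and of adhesion. IFNγ, released by activated T cells, acts through JAK kinases on antigen presentation and chemokine genes. The 4 genes have unlike products. Ctla2a encodes a small protein related to the propeptide of cathepsins and inhibits cathepsin L-type cysteine proteases; it was first described in activated mouse T cells. Tfpi2 encodes a secreted Kunitz-type inhibitor of plasmin and other serine proteases. Fbln2 encodes fibulin-2, a matrix glycoprotein that binds fibronectin and components of basement membranes and elastic fibres. Ggct encodes gamma-glutamylcyclotransferase, which releases 5-oxoproline from gamma-glutamyl amino acids in the turnover of glutathione.

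On GRCm38, 3 of the 4 genes lie on chromosome 6: Tfpi2 at chr6:3962595-3988919 and Ggct at chr6:54982580-54992950 on the minus strand, and Fbln2 at chr6:91212455-91272540 on the plus strand. Ctla2a lies at chr13:60934155-60936625 on the minus strand. Their promoter windows are shown because the 4 genes moved together with TGFβ and the window is where 2 short elements linked to TGFβ signalling can be looked up. Each window is RefSeq sequence of GRCm38.p6, from 250 bases before to 50 bases after the transcript start nearest to the annotated principal start, written 5′ to 3′ along the gene. Capitals mark the Smad binding element CAGAC, on either strand (GTCTG on the other), and the AP-1 site TGANTCA.
Ctla2a, chr13:60936576-60936875 (minus strand): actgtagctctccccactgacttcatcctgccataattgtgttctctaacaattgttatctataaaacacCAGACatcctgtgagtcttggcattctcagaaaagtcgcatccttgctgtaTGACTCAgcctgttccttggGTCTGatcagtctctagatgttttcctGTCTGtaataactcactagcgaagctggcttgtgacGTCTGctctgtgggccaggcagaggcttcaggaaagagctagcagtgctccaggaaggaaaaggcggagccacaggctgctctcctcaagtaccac
Tfpi2, chr6:3968326-3968625 (minus strand): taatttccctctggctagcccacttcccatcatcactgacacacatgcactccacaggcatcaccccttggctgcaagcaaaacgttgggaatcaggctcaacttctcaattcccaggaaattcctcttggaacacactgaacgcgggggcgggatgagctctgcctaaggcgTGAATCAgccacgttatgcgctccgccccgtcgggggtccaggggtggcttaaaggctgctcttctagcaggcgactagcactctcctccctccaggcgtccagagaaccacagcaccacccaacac
Fbln2, chr6:91212514-91212813 (plus strand): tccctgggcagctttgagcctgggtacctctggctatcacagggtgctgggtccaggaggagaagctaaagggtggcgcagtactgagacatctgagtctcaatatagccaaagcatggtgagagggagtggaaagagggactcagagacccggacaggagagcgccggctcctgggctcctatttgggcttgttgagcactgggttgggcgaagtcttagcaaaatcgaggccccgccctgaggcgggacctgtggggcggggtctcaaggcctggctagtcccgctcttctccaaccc
Ggct, chr6:54992818-54993117 (minus strand): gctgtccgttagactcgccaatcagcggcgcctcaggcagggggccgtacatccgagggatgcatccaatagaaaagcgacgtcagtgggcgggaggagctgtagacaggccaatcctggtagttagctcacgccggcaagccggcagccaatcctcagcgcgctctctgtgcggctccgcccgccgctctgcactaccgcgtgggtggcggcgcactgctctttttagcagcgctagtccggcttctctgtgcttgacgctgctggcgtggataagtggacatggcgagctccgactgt

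The Ctla2a window held 4 matches to CAGAC or its reverse complement and 1 AP-1 match, which did not overlap. The Tfpi2 window held 1 AP-1 match and no CAGAC. RefSeq has 2 further starts for Tfpi2, 20482 and 20560 bases from the principal start and near the outer end of the gene, and each of their windows held 2 CAGAC matches and no AP-1 site. The Fbln2 and Ggct windows held neither. Of all 32851 promoter windows of the same length, 49.6% held CAGAC on either strand, 7.81% held the AP-1 site and 4.02% held both, so a CAGAC match is common by its length alone. The RefSeq start used for Fbln2 lay 309 bases, and that for Ggct 83 bases, from the principal start. The Fbln2 window begins at chr6:91212514, inside the gene annotated from chr6:91212455, so it holds no sequence upstream of that gene start. A match is a run of letters and not a measured binding site, and its absence speaks only of these windows.

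Library totals ran from 17179530 to 23668015 counts. Levels are given as CPM, read counts scaled to library size by the TMM method, which allows a comparison of 1 gene between libraries but not of genes with each other. The 6 h medium then medium library stood apart, with a spread of 0.596 (SD over genes of its log2 deviation from the mean of the others in its group), while it was 0.32 to 0.361 in the other 3 libraries of that sequence. It was the lowest of its group for all 4 genes, so values of the 4 genes that rest on it are also given without it. The melanoma label could be checked only in part: of 9 melanocytic markers 5 had a row, with Mitf at 8.4 to 20.2 CPM and Gpnmb at 26.4 to 276 CPM, while Sox10 reached at most 0.135 CPM and Pmel at most 0.444 CPM. Markers of other cells were mixed. The endothelial list summed to 11 to 24.6 CPM in the libraries of the 4 TGFβ sequences and 5.56 to 13.8 CPM in the others, nearly all of it Cdh5, while the defining markers Pecam1 and Kdr stayed at or below 0.279 and 0.0507 CPM. The melanocytic list, mostly Gpnmb, summed to 37.9 to 155 CPM in the TGFβ sequences and 107 to 291 CPM in the others. The fibroblast list, mostly Col3a1 and Dcn, summed to 149 to 683 CPM in the TGFβ sequences and 195 to 1940 CPM in the others. Its sum was lowest where IFNγ was in the second stimulation. There it was 149 to 201 CPM in TGFβ then IFNγ, 195 to 234 CPM in medium then IFNγ and 131 CPM in the mix. All other libraries had 356 CPM or more. Col1a1 and Lum reached at most 0.751 and 0.173 CPM. The part of the melanocytic and fibroblast lists in the results was not tested. The leukocyte list summed to 20.4 to 82 CPM over all libraries, nearly all Cd14 and Cd68, with Ptprc at most 0.172 CPM, and the keratinocyte list to 0.113 to 1.5 CPM. In bulk RNA, a change in the number of cells that express a gene and a change in RNA per cell cannot be told apart.

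**Figure D1:**
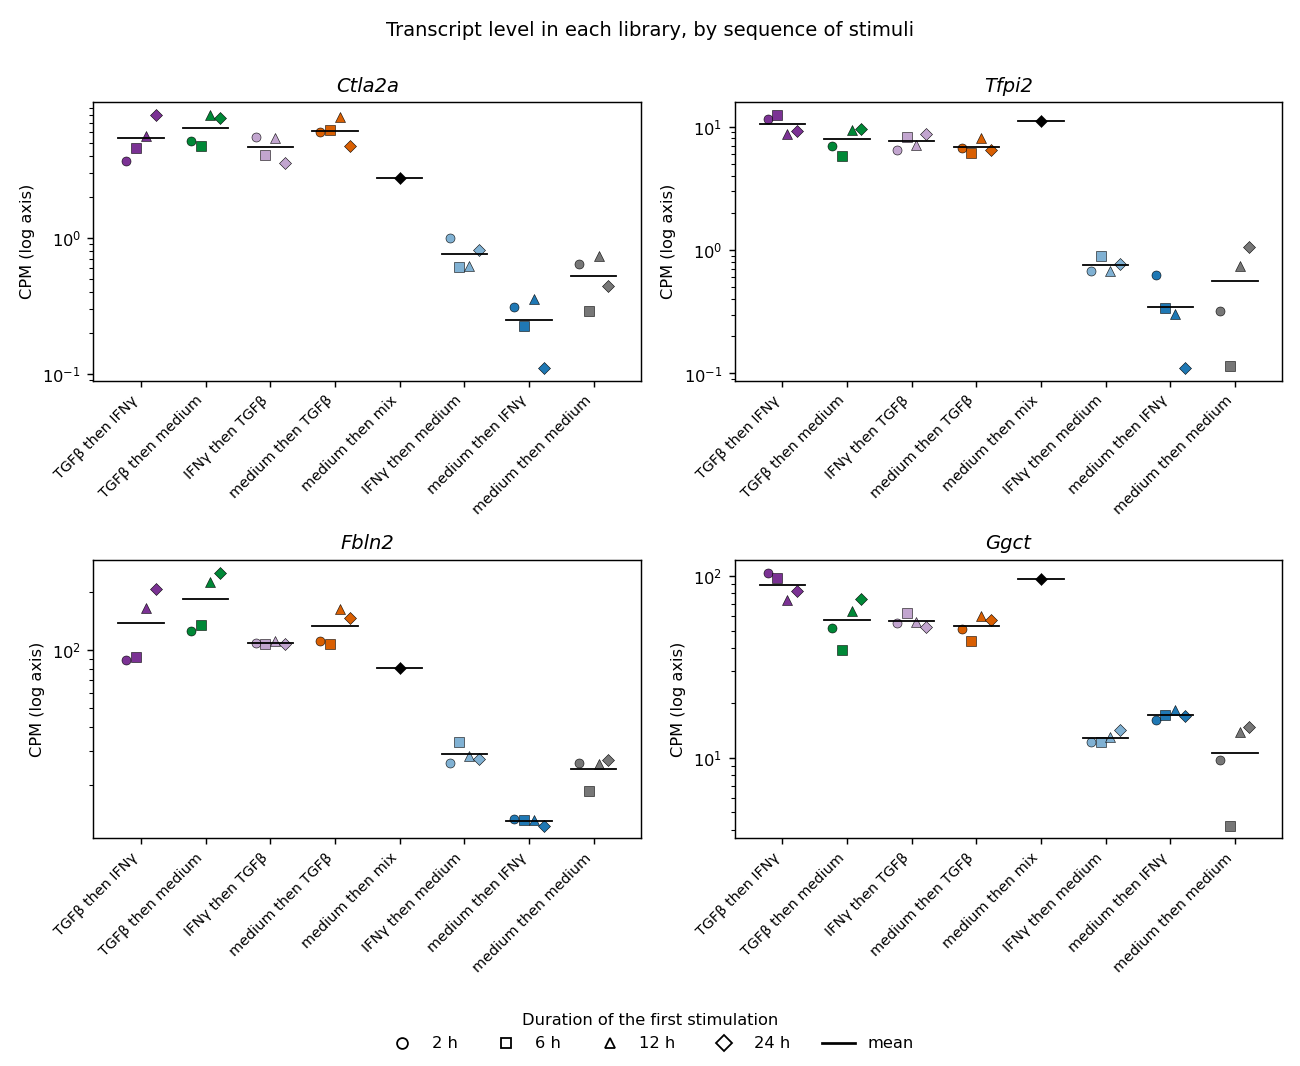
Level of each gene in CPM (log axis) in every library, grouped by sequence of stimuli; each point is 1 library, its shape gives the duration of the first stimulation, and the bar is the group mean. For each gene the 16 libraries of the 4 TGFβ sequences lie above the 12 libraries of the sequences without TGFβ.

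Ctla2a, the cathepsin inhibitor, was nearly silent without TGFβ. With TGFβ present until harvest (medium then TGFβ) it had 5.93, 6.14, 7.68 and 4.71 CPM at first durations of 2, 6, 12 and 24 h. After TGFβ was washed out (TGFβ then medium) it had 5.17, 4.74, 7.91 and 7.58 CPM, against 0.64, 0.289, 0.74 and 0.443 CPM in medium then medium. The level with TGFβ present and the level 24 h after its removal overlapped, and both lay above every medium library. When IFNγ followed the wash (TGFβ then IFNγ) Ctla2a had 3.63, 4.52, 5.58 and 7.96 CPM, against 0.311, 0.224, 0.355 and 0.111 CPM in medium then IFNγ. These last values are 2 to 7 reads each. The sequence IFNγ then TGFβ gave 5.48, 4.07, 5.41 and 3.52 CPM, against 0.996, 0.611, 0.625 and 0.814 CPM in IFNγ then medium. The mix library had 2.74 CPM, below each of the 16 libraries of the TGFβ sequences and above each of the 12 without TGFβ. By group mean the order was TGFβ then medium (6.35 ± 1.63), medium then TGFβ (6.12 ± 1.22), TGFβ then IFNγ (5.42 ± 1.87), IFNγ then TGFβ (4.62 ± 0.981), IFNγ then medium (0.761 ± 0.182), medium then medium (0.528 ± 0.202) and medium then IFNγ (0.25 ± 0.107 CPM; SD, n = 4 each). Every pair of neighbours in this order overlapped except IFNγ then TGFβ and IFNγ then medium. Ctla2a shared 11.4% of its transcripts' 50-base words with its neighbour Ctla2b, which had 0 to 8 reads per library, so reads of the pair could have been split or dropped. It also overlaps the annotated genes Gm49391 and Gm49393, by 343 and 44 exonic bases on the same strand.

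Tfpi2, the Kunitz inhibitor, followed the same division but stood highest where IFNγ came after or with TGFβ. It had 6.69, 6.14, 8.15 and 6.41 CPM in medium then TGFβ and 6.93, 5.75, 9.4 and 9.53 CPM in TGFβ then medium, against 0.32, 0.116, 0.74 and 1.05 CPM in medium then medium. It had 11.6, 12.4, 8.74 and 9.17 CPM in TGFβ then IFNγ, against 0.622, 0.336, 0.304 and 0.111 CPM in medium then IFNγ. The libraries of TGFβ then IFNγ overlapped those of TGFβ then medium, because the 12 and 24 h libraries were close. IFNγ then TGFβ gave 6.5, 8.19, 7.12 and 8.7 CPM, against 0.682, 0.888, 0.677 and 0.766 CPM in IFNγ then medium. The mix library, at 11 CPM, lay within the range of TGFβ then IFNγ. Libraries without TGFβ held 2 to 19 reads of Tfpi2, so levels there carry a wide counting error. Group means ran from 10.5 ± 1.79 CPM in TGFβ then IFNγ, 7.9 ± 1.87 in TGFβ then medium, 7.63 ± 0.996 in IFNγ then TGFβ and 6.85 ± 0.894 in medium then TGFβ down to 0.753 ± 0.0989 in IFNγ then medium, 0.557 ± 0.42 in medium then medium and 0.343 ± 0.21 CPM in medium then IFNγ (SD, n = 4 each). As for Ctla2a, the one pair of neighbours that did not overlap was the lowest TGFβ sequence and IFNγ then medium.

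Fbln2, the matrix glycoprotein, was well expressed without TGFβ and was highest after a long TGFβ exposure that had ended. It had 112, 108, 163 and 147 CPM in medium then TGFβ and 125, 135, 225 and 251 CPM in TGFβ then medium, against 26.2, 18.7, 25.7 and 27 CPM in medium then medium. It had 88.7, 92.3, 165 and 207 CPM in TGFβ then IFNγ, against 13.4, 13.2, 13.3 and 12.4 CPM in medium then IFNγ. In both sequences that began with TGFβ, and in medium then TGFβ, the 12 and 24 h libraries lay above the 2 and 6 h libraries. IFNγ then TGFβ gave a narrow range of 109, 108, 112 and 107 CPM, against 26, 33.7, 28.3 and 27.4 CPM in IFNγ then medium. The mix library, at 80.9 CPM, lay below all 16 libraries of the TGFβ sequences. Group means were 184 ± 63.3 CPM in TGFβ then medium, 138 ± 57.6 in TGFβ then IFNγ, 133 ± 26.8 in medium then TGFβ, 109 ± 2.17 in IFNγ then TGFβ, 28.9 ± 3.39 in IFNγ then medium, 24.4 ± 3.82 in medium then medium and 13.1 ± 0.466 CPM in medium then IFNγ (SD, n = 4 each). Neighbours overlapped at the top of this order, IFNγ then medium overlapped medium then medium, and medium then medium did not overlap medium then IFNγ.

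Ggct, the gamma-glutamylcyclotransferase, was raised by TGFβ and stood higher again where IFNγ came after or with TGFβ. It had 51, 43.7, 60.3 and 56.8 CPM in medium then TGFβ and 51.6, 38.9, 64.2 and 74.4 CPM in TGFβ then medium, against 9.64, 4.22, 13.8 and 14.7 CPM in medium then medium. It had 104, 97.8, 73.3 and 82.6 CPM in TGFβ then IFNγ, against 16, 17.1, 18.3 and 16.9 CPM in medium then IFNγ. The ranges of TGFβ then IFNγ and TGFβ then medium met only at 73.3 and 74.4 CPM. IFNγ then TGFβ gave 54.7, 62.5, 55.4 and 52.2 CPM, against 12.2, 12.2, 12.9 and 14.1 CPM in IFNγ then medium. The mix library had 96.1 CPM, within the range of TGFβ then IFNγ. Group means were 89.3 ± 13.9 CPM in TGFβ then IFNγ, 57.3 ± 15.4 in TGFβ then medium, 56.2 ± 4.4 in IFNγ then TGFβ, 53 ± 7.26 in medium then TGFβ, 17.1 ± 0.936 in medium then IFNγ, 12.8 ± 0.878 in IFNγ then medium and 10.6 ± 4.79 CPM in medium then medium (SD, n = 4 each). Medium then IFNγ overlapped neither neighbour in this order, and the 3 TGFβ sequences in the middle overlapped one another.

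The size of the rise that defined the 4 genes differed between them. Fold changes come from edgeR's quasi-likelihood model over all 14935 genes, with sequence and first duration as terms. With TGFβ present, relative to medium then medium, Ctla2a was 11.3-fold (log2 3.50, SE 0.278), Tfpi2 12.2-fold (log2 3.61, SE 0.311), Fbln2 5.36-fold (log2 2.42, SE 0.193) and Ggct 5.05-fold (log2 2.34, SE 0.211). In that comparison 11.7% of all tested genes were called higher and 11.6% lower at an adjusted p below 0.05. With TGFβ washed out, the corresponding folds were 11.6 (log2 3.54, SE 0.278), 14 (log2 3.81, SE 0.308), 7.33 (log2 2.87, SE 0.196) and 5.4 (log2 2.43, SE 0.211), where 14.5% of genes were called higher and 14.5% lower. These 2 comparisons share the medium then medium libraries. Without the 6 h library of that sequence the log2 values were 3.37, 3.32, 2.36 and 2.09 with TGFβ present, and 3.41, 3.51, 2.81 and 2.20 with TGFβ washed out. For TGFβ then IFNγ relative to medium then IFNγ, the folds were 20.8 (log2 4.38, SE 0.32), 29 (log2 4.86, SE 0.325), 10.1 (log2 3.33, SE 0.204) and 5.29 (log2 2.40, SE 0.204), where 8.64% of genes were called higher and 7.19% lower. A first exposure of 2 h already left this difference 24 h later: in the 2 h libraries of TGFβ then medium and medium then medium, Fbln2 had 125 against 26.2 CPM and Ggct 51.6 against 9.64 CPM.

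In cells that had first received IFNγ, the rise with TGFβ is likewise a description, since the genes were chosen for it. In IFNγ then TGFβ, relative to IFNγ then medium, Ctla2a was 6.01-fold (log2 2.59, SE 0.267), Tfpi2 10.1-fold (log2 3.33, SE 0.292), Fbln2 3.78-fold (log2 1.92, SE 0.19) and Ggct 4.41-fold (log2 2.14, SE 0.207). In that comparison 3.62% of all tested genes were called higher and 3.64% lower. As the choice of the genes implies, their libraries with TGFβ did not overlap those without. The lowest of the 16 libraries of the TGFβ sequences was 3.53 times the highest of the 12 without TGFβ for Ctla2a. It was 5.47 times for Tfpi2, 2.63 times for Fbln2 and 2.12 times for Ggct. The mix library, which also received TGFβ, is not among the 16. It was below all of them for Ctla2a (2.74 CPM) and Fbln2 (80.9 CPM), and within their range for Tfpi2 and Ggct.

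Prior IFNγ made no called difference to the level reached with TGFβ. For IFNγ then TGFβ against medium then TGFβ, Ctla2a had a log2 fold change of -0.40 (95% interval -0.83 to 0.03, edgeR adjusted p = 0.469) and was lower in 4 of 4 durations. Fbln2 had -0.25 (-0.62 to 0.12, adjusted p = 0.63), Tfpi2 0.16 (-0.30 to 0.61, adjusted p = 0.85) and Ggct 0.10 (-0.29 to 0.50, adjusted p = 0.896). Of all tested genes 0.0937% were called in either direction. The intervals leave room for differences of up to 0.83 on the log2 scale. Nor was a trace of prior IFNγ alone called 24 h after its removal: for IFNγ then medium against medium then medium the log2 fold changes were 0.51 (-0.24 to 1.26, edgeR adjusted p = 0.523) for Ctla2a, 0.44 (-0.43 to 1.31, adjusted p = 0.654) for Tfpi2, 0.26 (-0.14 to 0.65, adjusted p = 0.551) for Fbln2 and 0.30 (-0.16 to 0.76, adjusted p = 0.548) for Ggct, where 0.79% of genes were called. Without the 6 h medium library these values were 0.38, 0.14, 0.19 and 0.05.

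**Figure D2:**
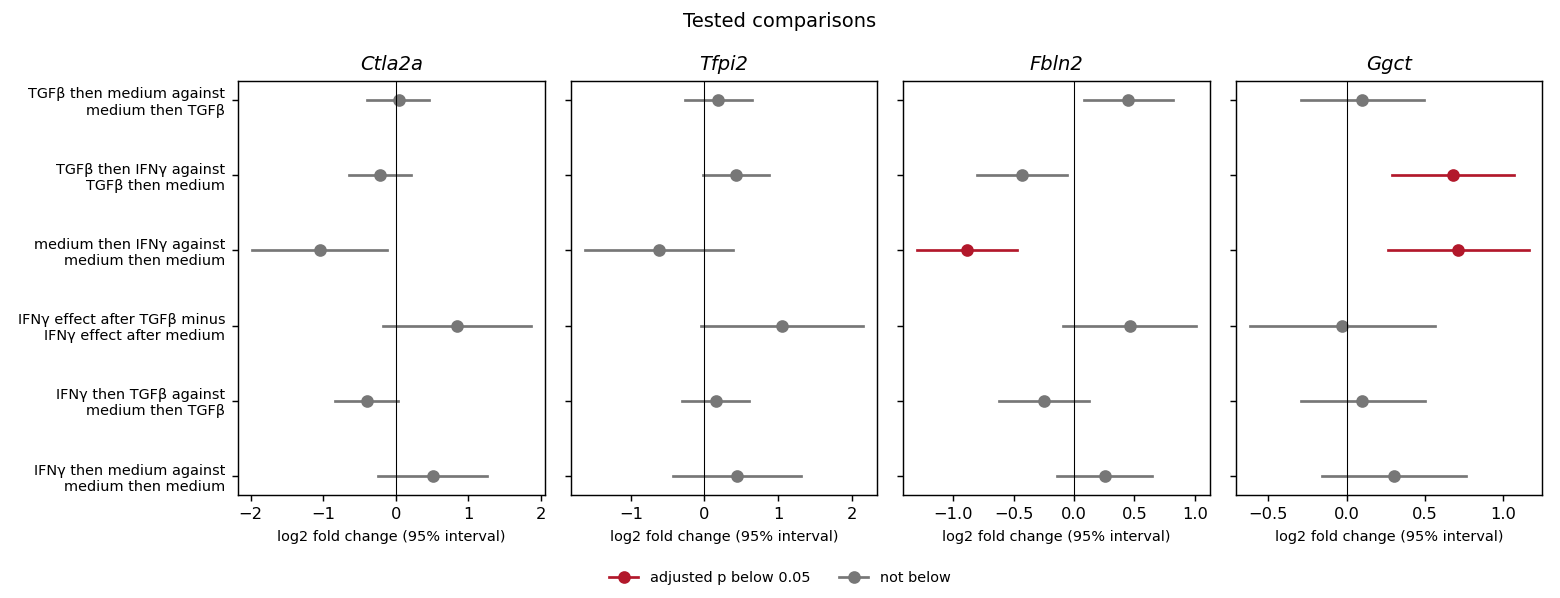
Fitted log2 fold change (point) and 95% interval (line) of the 4 genes in the 6 tested comparisons of sequences, from edgeR; red marks an adjusted p below 0.05 over all genes. Ggct is red to the right in both comparisons of IFNγ against medium as the second stimulation, and Fbln2 is red to the left for IFNγ without TGFβ.

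Withdrawal of TGFβ for 24 h left all 4 transcripts at levels that were not called different from those with TGFβ still present. For TGFβ then medium against medium then TGFβ, the log2 fold change was 0.04 for Ctla2a (95% interval -0.39 to 0.46, edgeR adjusted p = 0.99), 0.19 for Tfpi2 (-0.26 to 0.65, adjusted p = 0.926) and 0.10 for Ggct (-0.29 to 0.49, adjusted p = 0.954). Fbln2 had 0.45 (0.08 to 0.82), higher after withdrawal in 4 of 4 durations, with an unadjusted p of 0.0192 in edgeR and an adjusted p of 0.652. Expressed as folds, the intervals ran from 0.766 to 1.38 for Ctla2a, from 0.834 to 1.57 for Tfpi2, from 1.06 to 1.76 for Fbln2 and from 0.815 to 1.41 for Ggct. Equality is not shown by these intervals, and levels at the end of the first exposure were not analysed here. Both sequences are among those in which the genes were chosen as raised, so the comparison shares its libraries with that choice. In this comparison edgeR called 0% of all genes, with 928 at an unadjusted p below 0.05, and DESeq2 called 33. The total time since the first TGFβ contact differed between the sequences, since it was 24 h in medium then TGFβ and 24 h plus the first duration in TGFβ then medium.

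IFNγ given after TGFβ raised Ggct, and the other 3 genes did not pass the test. Ggct rose in TGFβ then IFNγ relative to TGFβ then medium, by 1.6-fold (log2 0.68, SE 0.189, edgeR adjusted p = 0.00696), in 4 of 4 durations, with per-duration differences of 0.15 to 1.33. Here 18.8% of tested genes were called higher and 17.6% lower. The Ggct difference was larger at 2 h (104 against 51.6 CPM) and 6 h (97.8 against 38.9 CPM). It was small at 12 h (73.3 against 64.2 CPM) and 24 h (82.6 against 74.4 CPM), with 1 library per value. Whether it depends on duration was not tested. Tfpi2 had a log2 fold change of 0.43 (95% interval -0.02 to 0.88, edgeR adjusted p = 0.126), higher at 2 and 6 h and lower at 12 and 24 h. Fbln2 had -0.43 (-0.80 to -0.06, adjusted p = 0.0651) and was lower in 4 of 4 durations. The Fbln2 difference passed the threshold without the 2 h library of TGFβ then medium (-0.53, edgeR adjusted p = 0.0325), without the 24 h library of TGFβ then IFNγ (-0.64, adjusted p = 0.00678), without a filter on low counts (-0.41, adjusted p = 0.0491) and with only these 2 sequences in the fit (-0.44, adjusted p = 0.00212). Ctla2a had -0.22 (-0.64 to 0.21, adjusted p = 0.449), lower in 3 of 4 durations, and passed without the 24 h library of TGFβ then IFNγ (-0.51, edgeR adjusted p = 0.0448). Even so, the lowest level after IFNγ, 3.63 CPM for Ctla2a and 88.7 CPM for Fbln2, lay above every library without TGFβ.

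Without TGFβ, IFNγ lowered Fbln2 and raised Ggct. In medium then IFNγ relative to medium then medium, Fbln2 fell to 0.541-fold (log2 -0.89, SE 0.201, edgeR adjusted p = 0.001) and Ggct rose 1.64-fold (log2 0.71, SE 0.218, adjusted p = 0.0105), each in 4 of 4 durations. This was the comparison with most calls, 22.7% of genes higher and 21.2% lower. Without the 6 h medium library Fbln2 had -0.95 (adjusted p = 0.00139 by edgeR), Ggct 0.47 (adjusted p = 0.0448), Ctla2a -1.18 (adjusted p = 0.0558) and Tfpi2 -0.91 (adjusted p = 0.127). Ctla2a had -1.05 (95% interval -1.98 to -0.12, edgeR adjusted p = 0.0613), lower in 4 of 4 durations, and DESeq2 gave -1.07 with an adjusted p of 0.0413. Tfpi2 had -0.62 (-1.63 to 0.39, adjusted p = 0.327), higher at 2 and 6 h and lower at 12 and 24 h. The difference between the IFNγ effect after TGFβ and that after medium was tested as an interaction, and none of the 4 genes passed, where 0.395% of all genes did. Its log2 value was 0.84 (-0.18 to 1.86, edgeR adjusted p = 0.486) for Ctla2a, 1.05 (-0.05 to 2.16, adjusted p = 0.413) for Tfpi2, 0.46 (-0.09 to 1.01, adjusted p = 0.481) for Fbln2 and -0.03 (-0.62 to 0.56, adjusted p = 0.98) for Ggct. Without the 6 h medium library these were 0.96, 1.34, 0.52 and 0.20.

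The mix library had no replicate, so its values stand side by side with the 24 h libraries and no test was made. For Tfpi2 it had 11 CPM, against 6.41 in medium then TGFβ, 0.111 in medium then IFNγ and 1.05 CPM in medium then medium at 24 h. For Ggct it had 96.1 CPM, against 56.8, 16.9 and 14.7 CPM in the same 3 sequences. For Fbln2 it had 80.9 CPM, against 147, 12.4 and 27 CPM, and for Ctla2a 2.74 CPM, against 4.71, 0.111 and 0.443 CPM. The mix thus stood above TGFβ alone for Tfpi2 and Ggct and below it for Fbln2 and Ctla2a.

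**Figure D3:**
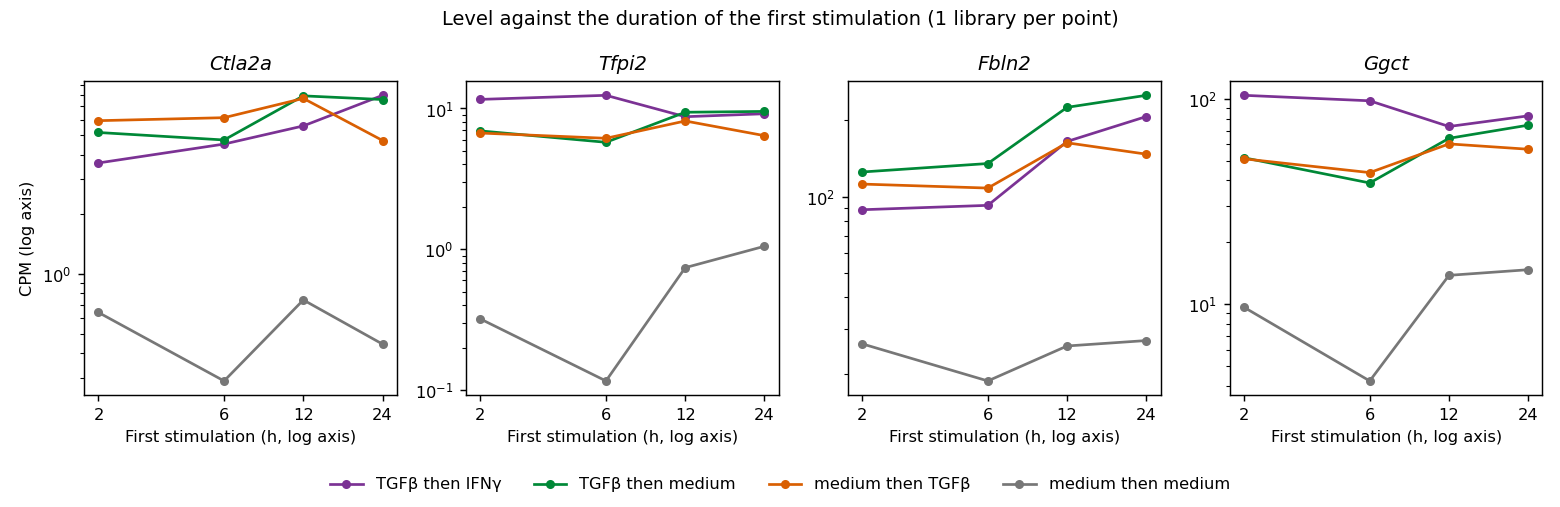
Level in CPM (log axis) against the duration of the first stimulation in h (log axis) for the 3 sequences with TGFβ present, washed out or followed by IFNγ, and for medium then medium; each point is 1 library. Fbln2 climbs with duration in both sequences that begin with TGFβ, from 125 to 251 CPM over 2 to 24 h when medium followed.

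In the main fit, Fbln2 transcript rose with the length of the first TGFβ exposure. Its slope in TGFβ then medium was 0.31 on the log2 scale per doubling of the first duration (SE 0.0706, edgeR adjusted p = 0.0323), where 0.1% of genes were called rising and 1.23% falling. In TGFβ then IFNγ it was 0.36 (SE 0.0701, adjusted p = 0.0486), where 0.0803% were called rising and 0.127% falling. Each slope rests on 4 libraries. In TGFβ then medium the call was lost without the 2 h library (0.45, edgeR adjusted p = 0.146), the 12 h library (0.29, adjusted p = 0.0894) or the 24 h library (0.31, adjusted p = 0.662). In TGFβ then IFNγ it was likewise lost without the 2 h (0.58, edgeR adjusted p = 0.0746), 12 h (0.35, adjusted p = 0.14) or 24 h library (0.32, adjusted p = 0.95), and both calls were lost when the sequence was fitted alone (adjusted p = 0.134 and 0.07). In medium then TGFβ, where the first stimulation was medium, the Fbln2 slope was 0.15 (95% interval 0.00 to 0.30), and in medium then medium 0.03 (-0.12 to 0.18). In medium then TGFβ too, the 12 and 24 h libraries (163 and 147 CPM) lay above the 2 and 6 h libraries (112 and 108 CPM). The difference between slopes was not tested, and exposure length cannot be told apart from other differences between the durations. Steeper slopes occurred for Tfpi2 at 2 to 19 reads per library without TGFβ, at -0.55 (-0.97 to -0.12) in medium then IFNγ and 0.60 (0.22 to 0.98) in medium then medium, given here without a test. The other 3 genes had no called slope: after TGFβ then medium 0.19 for Ctla2a (edgeR adjusted p = 0.578), 0.16 for Tfpi2 (adjusted p = 0.601) and 0.17 for Ggct (adjusted p = 0.615), and after TGFβ then IFNγ 0.31 (adjusted p = 0.201), -0.12 (adjusted p = 0.586) and -0.12 (adjusted p = 0.645).

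The 4 genes varied together, with Pearson's r of log2 CPM over the 29 libraries from 0.846 for Fbln2 and Ggct to 0.979 for Ctla2a and Fbln2. The libraries share their TGFβ grouping, for which the genes were chosen, so these values are a description. The genes most like Ctla2a were Fbln2 itself (r = 0.979), Lamb3, a laminin chain of basement membranes (0.974), and Pxdc1 (0.973). Those most like Fbln2 were Cd109, a cell surface protein that binds TGFβ (0.982), Pxdc1 (0.981) and Ctla2a (0.979). Cd109 averaged 247 ± 12.8 CPM in TGFβ then medium and 123 ± 3.12 CPM in medium then medium (SD, n = 4 each). Among those most like Tfpi2 were Nt5e, the ectonucleotidase that forms adenosine (0.968), and Rin2, a regulator of Rab GTPases (0.955). Nt5e averaged 236 ± 16.1 CPM in TGFβ then IFNγ and 74.7 ± 14.3 CPM in medium then IFNγ. Those most like Ggct were Ccbe1, a secreted factor of lymphatic vessel growth (0.98), Itga5, a chain of the fibronectin receptor (0.973), and Mfap3l (0.966). Ccbe1 averaged 143 ± 17.5 CPM in TGFβ then IFNγ and 39.5 ± 2.24 CPM in medium then IFNγ.

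**Figure D4:**
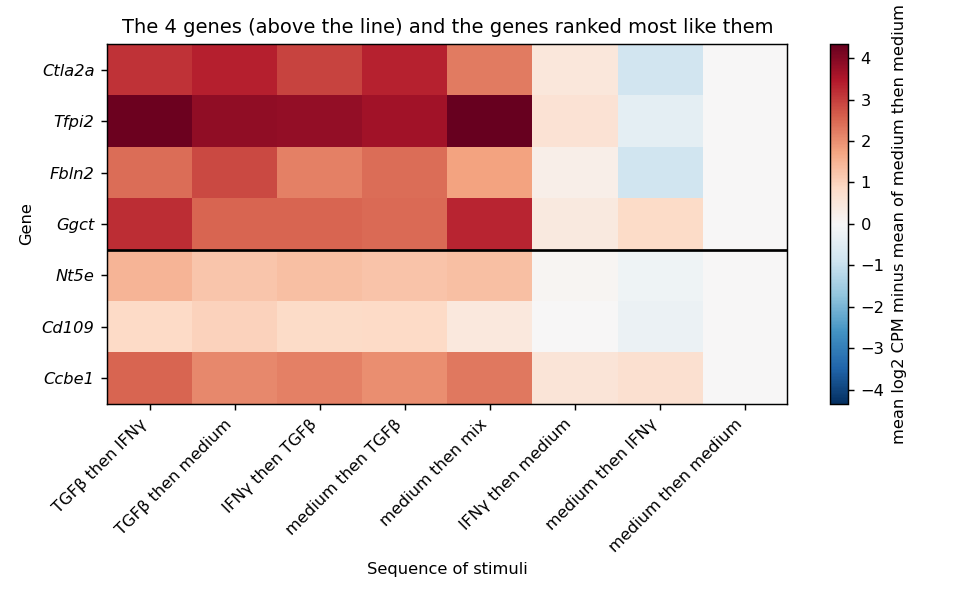
Mean log2 CPM of each sequence minus that of medium then medium, for the 4 genes (above the line) and for Nt5e, Cd109 and Ccbe1, which ranked first in likeness to Tfpi2, Fbln2 and Ggct; colour gives the difference, red higher and blue lower. The 4 columns of TGFβ sequences are red in every row.

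Genes known from other tissues as TGFβ targets moved in both directions. Of 32 tested, 16 were called higher and 4 lower with TGFβ present (median log2 0.26, against 0 over all genes), where 11.7% of all genes were called higher and 11.6% lower. After it was washed out 12 were higher and 5 lower (median 0.12, against 0), where the shares of all genes were 14.5% and 14.5%. In IFNγ then TGFβ against IFNγ then medium, 14 were called higher and 1 lower (median 0.38, against 0), beside 3.62% and 3.64% of all genes. The list had 18 higher and 3 lower with TGFβ present, and 15 higher and 4 lower after wash-out, without the 6 h medium library. In fits without that library, also for the lists below, 10.4% of all genes were called higher and 10.6% lower with TGFβ present. The shares there were 13.4% and 13.2% after wash-out, and 20.3% and 18.7% in medium then IFNγ. The matrix protease Mmp12 rose most with TGFβ present (log2 3.28, SE 0.32, edgeR adjusted p = 2.34e-07, and 3.92 without the 6 h medium library), followed by the matricellular gene Ccn2 (2.19, SE 0.298, adjusted p = 1.69e-05) and the integrin chain Itga2 (2.07, SE 0.287, adjusted p = 2.04e-05). Id1 and Id2, inhibitors of differentiation factors, fell (-1.08 and -1.56, adjusted p = 1.03e-05 and 0.00369), Id2 by less without the 6 h medium library (-0.63, edgeR adjusted p = 0.0124). In TGFβ then IFNγ against TGFβ then medium the list split, with 8 higher and 6 lower (median -0.02, against -0.01), beside 18.8% and 17.6% of all genes. Timp3, an inhibitor of metalloproteinases, rose (1.17, edgeR adjusted p = 6.62e-05), as Ggct did, and Mmp12 fell (-1.67, adjusted p = 4.67e-05). Of 26 tested genes of the pathway itself, 3 were called higher and 7 lower with TGFβ present (median 0.01, against 0), so the share called higher was near the 11.7% of all genes and the share called lower above 11.6%. The counts were 5 higher and 6 lower without the 6 h medium library. The inhibitory Smad7 rose (0.61, SE 0.114, edgeR adjusted p = 0.000469) and the co-receptor Tgfbr3 fell (-1.16, SE 0.126, adjusted p = 1.15e-06). After wash-out Smad7 was still higher (0.32, edgeR adjusted p = 0.0402). Between TGFβ then medium and medium then TGFβ edgeR called 0% of all genes, so none of either list could be among them. The medians of the 2 lists were -0.05 and -0.02, against 0 over all genes.

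Among the functional relatives of each gene, calls also went in both directions. Among 22 tested genes of fibulins and elastic fibres, the relatives of Fbln2, 2 were called higher and 8 lower with TGFβ present (median -0.57, against 0 over all genes), beside 11.7% and 11.6% of all genes. Without the 6 h medium library 2 were higher and 7 lower (median -0.29). Fibronectin, Fn1, rose (log2 0.68, SE 0.184, edgeR adjusted p = 0.00924), and the fibulin Efemp1 fell to 0.42 ± 0.321 CPM in medium then TGFβ, against 1.73 ± 0.21 CPM in medium then medium (SD, n = 4; log2 -2.07, edgeR adjusted p = 3e-04). In medium then IFNγ 1 of these was called higher and 13 lower (median -0.68, against -0.01), beside 22.7% and 21.2% of all genes, or 1 and 11 without the 6 h medium library (median -0.51). Fn1 fell (-1.38, edgeR adjusted p = 3.66e-06), as Fbln2 did. Of 14 tested cathepsins and cathepsin inhibitors, the possible partners of Ctla2a, 1 was called higher and 6 lower with TGFβ present (median -0.35, against 0), beside 11.7% and 11.6% of all genes, or 1 and 5 without the 6 h medium library. The cystatin Cst3 fell (-1.04, SE 0.111, edgeR adjusted p = 9.25e-07) and the lysosomal protease Ctsd fell (-0.52, adjusted p = 0.000514). The gene called higher was cathepsin W, Ctsw, at 0.556 ± 0.202 CPM in medium then TGFβ and 0.0373 ± 0.0452 CPM in medium then medium, with no read in medium then IFNγ or IFNγ then medium.

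Of 18 tested genes of the tissue factor and plasmin system, in which Tfpi2 acts, 5 were called higher and 1 lower with TGFβ present (median 0.01, against 0 over all genes), beside 11.7% and 11.6% of all genes, and the counts were the same without the 6 h medium library. The urokinase receptor Plaur (log2 0.81, SE 0.175, edgeR adjusted p = 0.0017) and the protease-activated receptor F2rl1 (2.00, adjusted p = 0.000147) rose, and Plgrkt, a plasminogen receptor, fell (-0.58, adjusted p = 0.0101). Of 30 tested genes of the glutathione cycle, in which Ggct acts, 4 were called higher and 5 lower with TGFβ present (median -0.02, against 0), shares near the 11.7% and 11.6% of all genes, and 3 and 2 without the 6 h medium library. The exporters Abcc4 (0.73, edgeR adjusted p = 2.21e-05) and Abcc1 (0.46, adjusted p = 0.00102) rose, and the transferases Gstm1 (-0.85, adjusted p = 0.00217) and Mgst1 (-1.20, adjusted p = 0.000623) fell. In medium then IFNγ 13 of the 30 were called higher and 8 lower (median 0.07, against -0.01), beside 22.7% and 21.2% of all genes, or 10 and 7 without the 6 h medium library. Gclm, a subunit of the enzyme that starts glutathione synthesis, rose (1.04, SE 0.0789, edgeR adjusted p = 1.02e-09), as Ggct did. In TGFβ then IFNγ against TGFβ then medium 7 were higher and 6 lower (median 0.01, against -0.01), shares near the 18.8% and 17.6% of all genes, with Gclm again higher (0.84, edgeR adjusted p = 3.61e-08). IFNγ itself acted in both settings. Of 24 IFNγ response genes, 24 were called higher when it followed TGFβ (median 3.16, against -0.01), beside 18.8% of all genes. When it followed medium 20 were higher (median 2.09, against -0.01), beside 22.7%, or 17 beside 20.3% without the 6 h medium library. The starting levels differed: in TGFβ then medium against medium then medium 0 were higher and 21 lower (median -1.61, against 0), beside 14.5% and 14.5%. In TGFβ then IFNγ against medium then IFNγ 0 were higher and 2 lower (median -0.45, against -0.01), beside 8.64% and 7.19%. Every list gene described above in a comparison with medium then medium kept its call and direction without the 6 h medium library. Other genes that the naming rule picked lost their call without it. With TGFβ present these were Ctsf, Cndp2 and Gpx7 (edgeR adjusted p = 0.181, 0.0781 and 0.0684). After wash-out they were Hmcn2 and Ctsf (edgeR adjusted p = 0.0703 and 0.195). In medium then IFNγ they were Col1a1, Mmp12, F2r and Chac1 (edgeR adjusted p = 0.17, 0.131, 0.0651 and 0.138).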

How the data were processed

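The authors' deposited table holds raw read counts, 1 row per Ensembl gene and 1 column for each of 29 libraries. The submitters' processing notes name HISAT, without a version, and GRCm38. For the counting tool, annotation and strand setting, the sources used here give nothing. Per the labels' protocols, total RNA with an RNA integrity number above 8 went into stranded mRNA libraries. Every column was matched to 1 sample by name, and 0 columns were left over.

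Counts were filtered with filterByExpr (minimum count 10), scaled by TMM and tested with edgeR 4.0.16 (R 4.3.3) by quasi-likelihood, with sequence and first duration as factors (18 residual degrees of freedom), or with a slope on log2 duration per sequence (14 degrees of freedom). P-values were adjusted by Benjamini-Hochberg over 14935 genes and called below 0.05. Log2 CPM for correlations used a prior count of 2. Totals ran from 17179530 to 23668015 counts, and counting error limits genes with few reads most. Alternatives were DESeq2 1.42.0, RLE scaling, no filter, no duration term, only the sequences compared, and each library left out.

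The members, lists and tests were chosen with earlier results of these data known. Named list genes are up to 3 called genes with the highest and 3 with the lowest fold change per comparison, and likeness names genes among the 3 of highest r per member. Some genes that these rules pick are not reported here. Libraries of the same duration deviated together, with every pair's correlation above 0.1, in 5 of 9 comparisons of 2 sequences, and not in the 4 that use medium then medium (range over all pairs -0.0409 to 0.499). No 2 libraries of a sequence agreed within sampling noise, with a lowest chi-square per degree of freedom of 3.96. Promoter windows came from RefSeq on GRCm38.p6, and gene overlaps from GENCODE M21.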

Additional observations from a re-analysis of the deposited data

Results flagged for a closer look

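Fbln2 in the 6 h library of medium then medium was at 18.7 CPM, while the other 3 libraries of that sequence lay between 25.7 and 27 CPM. The gap to the nearest library was 0.852 of the group's range of values, above Dixon's limit for 4 samples. This was 1 of 28 groups looked at, and chance alone marks about 1 in 20. The same library had the widest spread of deviations over all genes, 0.596 against 0.312 to 0.514 in all other libraries.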

How the results depend on the processing

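Over the alternatives run, 602 of 616 values of the 4 genes kept their side of the threshold or, where no test was made, moved by less than the SD over durations. Of the rest, 14 changed side, and 0 reversed with a call in either fit. Values near 0 without a call could change sign. In TGFβ then medium against medium then TGFβ, Ctla2a ran from -0.12 to 0.15 and Ggct from -0.03 to 0.22 with 1 library left out. Fbln2 in TGFβ then IFNγ against TGFβ then medium moved to -0.41 without a filter and to -0.44 with only these sequences in the fit, and ran from -0.64 to -0.30 with 1 library left out. Ctla2a in that comparison ran from -0.51 to -0.04. Ctla2a in medium then IFNγ against medium then medium had -1.07 by DESeq2. With the sequence fitted alone the Fbln2 slope was 0.30 in TGFβ then medium and 0.37 in TGFβ then IFNγ, and with 1 library left out it ran from 0.29 to 0.45 and from 0.32 to 0.58. The cause of these changes was not tested. Without the replicate block (no duration term) all member calls kept their side, with Ggct in TGFβ then IFNγ against TGFβ then medium at 0.64 (edgeR adjusted p = 0.0234).

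Counts of genes called moved more. Without the replicate block they were 1726 in place of 3476 for TGFβ present, 2615 in place of 4325 for TGFβ washed out, 1232 in place of 2365 for TGFβ then IFNγ against medium then IFNγ, 488 in place of 1084 for TGFβ after IFNγ, 16 in place of 59 for the interaction, 1 in place of 14 for IFNγ then TGFβ against medium then TGFβ and 6 in place of 118 for IFNγ washed out. With only the sequences compared they were 1054 for TGFβ present, 1394 for TGFβ washed out, 3181 for TGFβ after IFNγ, 15 for the interaction, 122 for IFNγ then TGFβ against medium then TGFβ and 0 for IFNγ washed out. TGFβ then medium against medium then TGFβ had 0 calls, against 3 with RLE, 16 without a filter, 33 by DESeq2 and 41 with only these sequences. Without a filter the interaction had 114, IFNγ then TGFβ against medium then TGFβ 93, and the slopes 299 and 266 in place of 198 and 31. DESeq2 gave 225, 160, 325 and 295 for these and 403 for IFNγ washed out, and the slopes fitted alone gave 0 and 4. With 1 library left out, counts ran from 0 to 6 for TGFβ withdrawn, 31 to 201 for the interaction, 687 to 1061 for TGFβ after IFNγ, 0 to 45 for IFNγ then TGFβ against medium then TGFβ, 1 to 498 for IFNγ washed out, and 0 to 233 and 0 to 47 for the slopes. Low reads of Ctla2a and Tfpi2 without TGFβ limit what these libraries can resolve.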
